A study of Mus musculus with 9 samples.

Results

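Cytosolic ribosomal protein genes encode the proteins of the large and small subunits of the ribosome that works in the cytoplasm. They were taken here as all gene symbols that begin with Rpl or Rps and a digit, together with Rplp0 to Rplp2 and Rpsa. Rps6k kinase genes and symbols with -ps, which mark pseudogenes, were left out, as were genes with a mean of under 10 counts over the libraries labelled SAE and CTL. Of 38911 genes in the deposited table, 90 fitted the naming rule and 60 reached the minimum. These 60 are called the members below.

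Each ribosome needs its proteins in fixed numbers, and cells keep the production of these many proteins closely matched. In mammals the mRNAs of ribosomal proteins begin with a run of pyrimidines, the 5′ terminal oligopyrimidine (TOP) tract. Through this tract their translation follows nutrient and growth signals that act through the mTOR kinase and the RNA-binding protein LARP1. Ribosomes are made in every cell, and in neurons they also work in dendrites and axons, away from the cell body.

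The libraries were made from total RNA of the hippocampus of healthy adult BALB/c mice kept free of specific pathogens, after removal of ribosomal RNA. Mice in the CCLF group had the cecum tied off and punctured (CLP), an operation that models sepsis from the gut, and received flavonoids of Cuscuta chinensis at 200 mg/kg. The SAE group had CLP alone, and the CTL group had a sham operation. Each group has 3 libraries that the labels number as biological replicates, so that p-values measure the spread between these libraries. The labels used here give no time after surgery, sex or pooling. Because whole tissue was measured, fewer cells of a type and less RNA per cell cannot be told apart.

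Library totals were 4626519 to 4895474 counts, and 22846 genes had at least 1 count. Both facts that follow bear on every comparison below. First, the acute-phase gene Lcn2 had 6791, 9635 and 4524 counts in CCLF, 13, 14 and 6 in SAE, and 13816, 14822 and 13246 in CTL. The 6 tested genes of a sepsis-response list of 7 were all lower in the libraries labelled SAE than in those labelled CTL, the sham group. Group names below are therefore those of the labels, and every direction is one between labelled libraries. Whether the labels or columns of SAE and CTL are exchanged was not tested. If they were, every direction between these groups would be turned round. The comparison of CCLF with SAE would then set CLP with the flavonoids against the sham operation, not against CLP alone. Second, all 3 CCLF values lay within the range of the 6 SAE and CTL values in 96.3% of 8213 tested genes. The median ratio of variance to mean over genes with at least 20 counts was 0.539 in CCLF, 1.33 in SAE and 1.31 in CTL, where pure counting error with 3 libraries gives a median of 0.693. Over the members the same ratio was 3 in CCLF, 1.8 in SAE and 2.33 in CTL, so there CCLF did not have the lowest spread.

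The table lists transcripts, and how many of them a gene has went with its counts. Among 48 ribosomal protein genes with 1 RefSeq transcript, leaving out Rps19bp1 and the near-empty copies Rpl10l, Rpl32l, Rps23rg1 and Rps27rt, the mean count over SAE and CTL ran from 504.83 to 8380.17 with a median of 2464.66. The lowest of them is Rps4l, which the RefSeq table lists as a transcribed pseudogene and which has no -ps in its name. Among 37 with several transcripts it ran from 0 to 45, with a median of 1.5, and 13 of them had no count in SAE and CTL. The 13 include Rpl5, which carries 5S ribosomal RNA into the large subunit, the stalk gene Rplp2, and Rps2. Of the 60 members 52 have 1 transcript and 8 have several. Of the 30 genes under the minimum, 29 have several transcripts, and the other is the testis paralogue Rpl10l with 1 transcript and 0 counts. Just inside the minimum stood Rpl3 with a mean of 11.17 counts, Rpl21 with 11.33 and Rpl32l with 11.5. Just outside it stood Rps9 with 8.67, Rps15 with 8.17, Rps4x with 7.5 and Rpl30 with 7.17. A low count of a gene with several transcripts is therefore not read as low expression here.

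**Figure D1:**
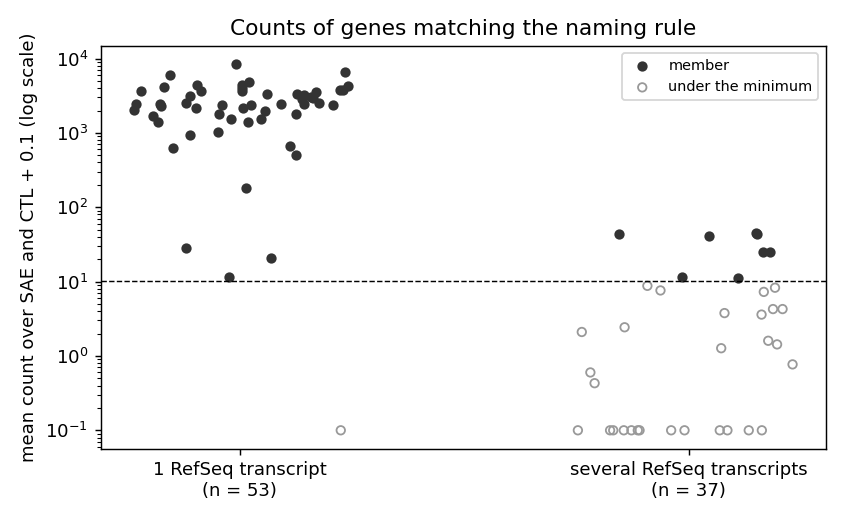
Mean count over the 6 SAE and CTL libraries plus 0.1 (log axis) of each of the 90 genes that fit the naming rule, for genes with 1 and with several RefSeq transcripts; filled points are members, open points lie under the minimum of 10 (dashed line). Genes with several transcripts all lie at or below a mean of 45 counts.

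The letters at the annotated transcription starts are shown because the TOP tract is the feature this family is best known for. Starts came from the RefSeq promoter table of GRCm38.p6, which held 44 starts of 43 members. Each line below gives 15 bases before and 15 bases from the annotated start on. Capitals mark a C followed by at least 4 further letters that are each C or T, beginning within 5 bases of the start. The first 5 have such a tract and the last 3 do not.
Rpl14, chr9:120571502-120571531, plus strand: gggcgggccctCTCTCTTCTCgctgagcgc
Rpl28, chr7:4792950-4792979, plus strand: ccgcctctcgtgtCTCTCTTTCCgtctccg
Rps18, chr17:33955651-33955680, minus strand: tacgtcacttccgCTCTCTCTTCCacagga
Rpl35, chr2:39005117-39005146, minus strand: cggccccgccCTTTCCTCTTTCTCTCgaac
Rps6, chr4:86857353-86857382, minus strand: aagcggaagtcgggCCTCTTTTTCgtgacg
Rplp0, chr5:115559452-115559481, plus strand: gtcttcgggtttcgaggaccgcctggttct
Rps13, chr7:116334176-116334205, minus strand: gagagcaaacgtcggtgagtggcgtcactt
Rpsa, chr9:120127751-120127780, plus strand: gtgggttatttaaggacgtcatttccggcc
Of the 44 member starts 17 (38.6%) had the tract, beside 18.3% of all 32851 starts in the table. An annotated start can lie some bases away from the one used in the tissue, so a missing tract says only that these letters are not in this window. In the 300-base windows from 250 bases before to 50 after the start, CCGGAAG stood on either strand in 34.1% of member starts and 8.86% of all starts. GGGCGG stood in 56.8% and 35.7%, AAGATGGC in 9.09% and 2.75%, and CACGTG in 6.82% and 7.15%. GGGCGG and CCGGAAG are the core letters known to be bound by Sp1 and by ETS factors such as GABPA, and AAGATGGC those known for YY1. These are matches of letters, not sites of binding.

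Most cytosolic ribosomal protein genes were lower in the libraries labelled SAE than in those labelled CTL, by small amounts. All 60 members could be tested in these 6 libraries, with edgeR's quasi-likelihood test and Benjamini-Hochberg adjustment over 8213 genes. At an adjusted p under 0.05, 42 members were lower, 3 were higher and 15 were not called. Over all tested genes 47.6% were called, 23.9% lower and 23.7% higher. The median log2 fold, SAE minus CTL, was −0.19 over the members and 0 over all tested genes. Of the 3 called higher, Rpl6 and Rpl18 are genes with several transcripts and low counts, and Rps19bp1 encodes a protein that binds RPS19 and is no part of the ribosome. All SAE libraries lay below all CTL libraries in 43 members, above them in 2, and the groups overlapped in 15. Over all tested genes 27.1% lay below and 28.6% above.

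The pattern was more even among the 51 members with 1 transcript other than Rps19bp1. Of these, 41 were called lower, none higher and 10 were not called, while the fold was below 0 in all 51 and its median was −0.22. Restricted to the 48 with a mean of at least 500 counts, 40 (83.3%) were called lower, with a median of −0.21 and a range of −0.55 to −0.03. Depth bears on such calls, so the background for these 48 is the 1580 tested genes with 1 transcript and the same minimum. Of those 1580, 37.8% were called lower, 55.7% had a fold below 0, and the median was −0.04. Only 8 of the 42 members called lower fell by more than 1.25-fold, a threshold chosen after the values were seen.

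**Figure D2:**
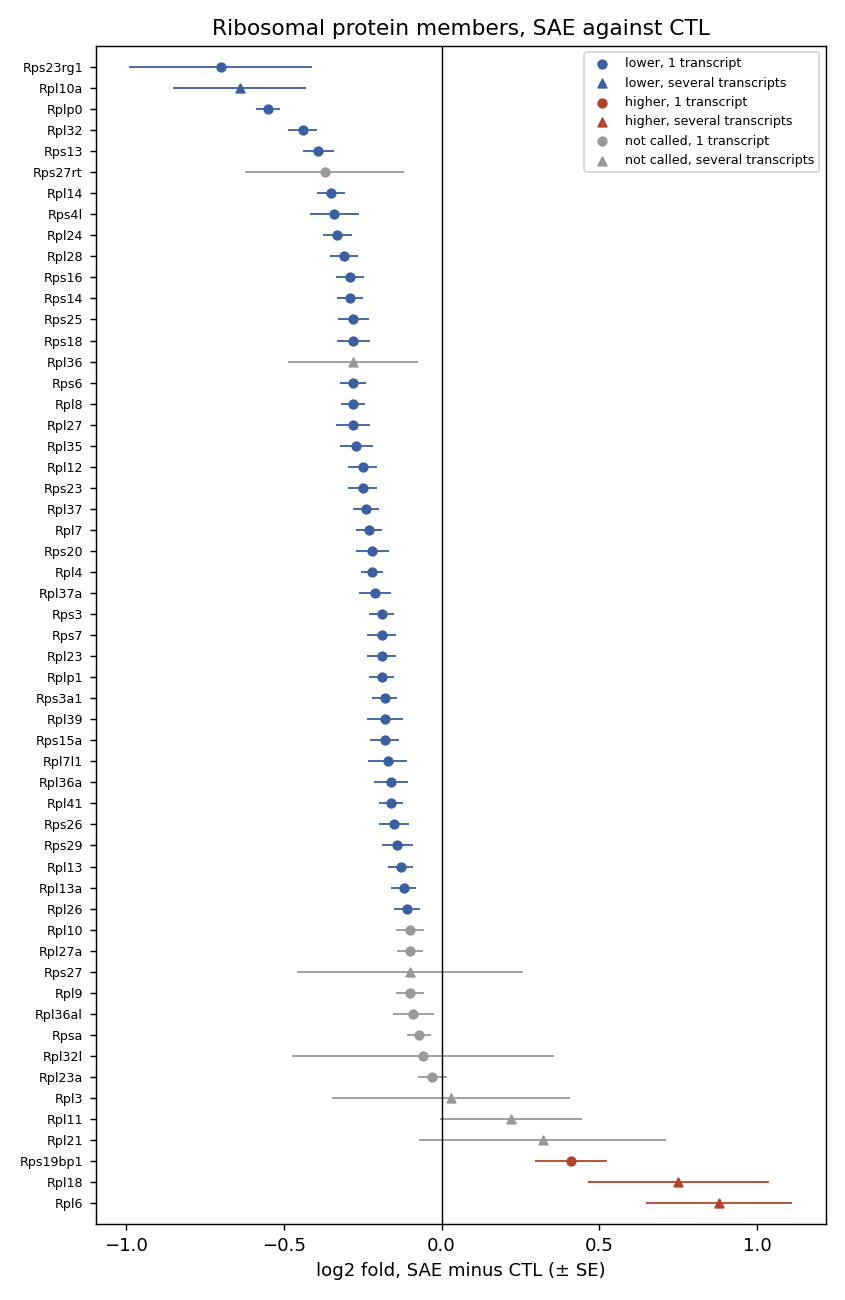
Log2 fold of 55 of the 60 members, SAE minus CTL, with its approximate SE; blue marks genes called lower, red called higher, grey not called, circles genes with 1 transcript and triangles genes with several. All members shown right of 0 are genes with several transcripts except Rps19bp1.

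As a share of all counts, the members took 2.946%, 2.97% and 2.921% in CCLF, 2.722%, 2.691% and 2.799% in SAE, and 2.998%, 3.123% and 3.135% in CTL. The highest SAE library lay below the lowest CTL library, and the CCLF libraries lay between them. Group means were 2.946 ± 0.025% in CCLF, 2.737 ± 0.056% in SAE and 3.085 ± 0.076% in CTL (SD, n = 3 each). Shares per subunit cover only members with 1 transcript and leave out Rplp0, Rplp1, Rps19bp1 and near copies of ribosomal protein genes. On this basis 24 members of the large subunit took 1.499 ± 0.0087% in CCLF, 1.401 ± 0.022% in SAE and 1.57 ± 0.036% in CTL. The 19 members of the small subunit took 1.169 ± 0.012% in CCLF, 1.088 ± 0.03% in SAE and 1.219 ± 0.036% in CTL. For the 54 genes of the mitochondrial ribosome, a separate particle, the shares were 0.36 ± 0.0027% in CCLF, 0.356 ± 0.0032% in SAE and 0.354 ± 0.0042% in CTL, and the SAE and CTL libraries overlapped. The difference between these families was not tested.

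**Figure D3:**
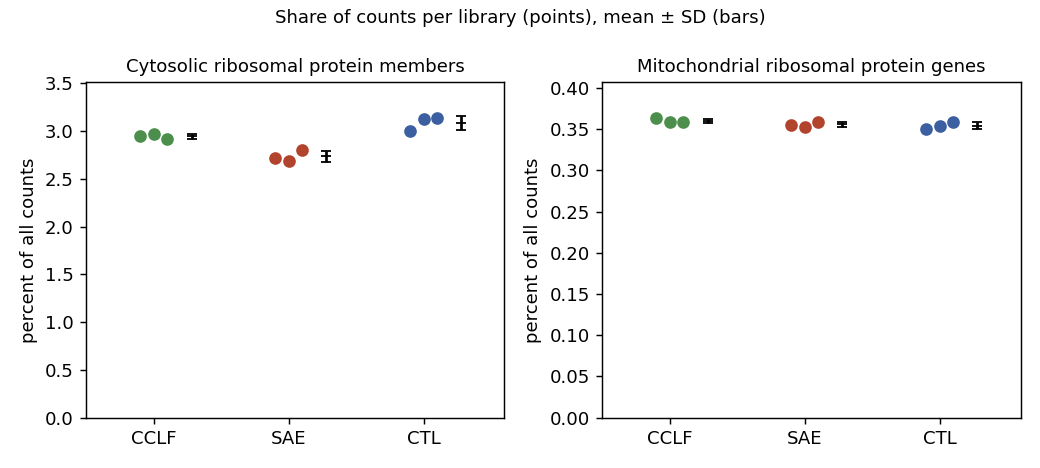
Percent of all counts per library (points) with mean ± SD of 3 libraries per group (bars) for the cytosolic members and the mitochondrial ribosomal protein genes; both axes start at 0. Cytosolic shares are lowest in SAE, at 2.691% to 2.799%, and mitochondrial shares lie close together.

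The stalk of the large subunit, which recruits translation factors, rests on RPLP0, which carries pairs of RPLP1 and RPLP2. Rplp0 had the strongest fall among members with at least 500 counts. Its level was 868, 1029 and 719.8 CPM in CCLF, 715.2, 722 and 712 CPM in SAE, and 1029, 1071 and 1025 CPM in CTL, where CPM stands for edgeR's count in proportion to the scaled library size. The SAE libraries lay within a narrow band far below CTL, while the CCLF libraries spread over almost the whole distance between them. The log2 fold, SAE minus CTL, was −0.55 ± 0.038 (SE), a fall by 31.7%, with an adjusted p of 1.64e-11 by edgeR. Rplp1 had 1270.0, 1247 and 1354 CPM in SAE and 1404, 1479 and 1488 CPM in CTL, which do not overlap (−0.19 ± 0.039, adjusted p = 0.000302 by edgeR). Per library, the ratio of Rplp0 to Rplp1 counts was 0.594, 0.784 and 0.485 in CCLF, 0.563, 0.579 and 0.526 in SAE, and 0.733, 0.724 and 0.689 in CTL. This ratio, which needs no scaling between libraries, was lower in every SAE library than in every CTL library. It is a description, since Rplp0 is named here for its low fold.

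Of 24 further large-subunit members with 1 transcript, 20 were called lower and 4 were not called, with a median log2 fold of −0.21 and a range of −0.44 to −0.03. Rpl32 had 385.5, 383 and 398 CPM in SAE and 510.2, 552 and 508 CPM in CTL. The groups lay clearly apart, and the fold was −0.44 ± 0.046 (adjusted p = 2.52e-08 by edgeR). Rpl14 had 434, 428 and 453 CPM in SAE and 533, 562.5 and 566 CPM in CTL, with a fold of −0.35 ± 0.044 and an adjusted p of 5.55e-07 by edgeR. Rpl24, whose protein forms a bridge to the small subunit, had 377, 368 and 396 CPM in SAE and 471, 475 and 471 CPM in CTL. Its fold was −0.33 ± 0.045 (adjusted p = 2.25e-06 by edgeR), and the CTL libraries differed from each other by little. Rpl14 shares 84.9% of its coding 31-base words with Rpl14-ps1. The counts given to that pseudogene were also lower in SAE, at −0.32 ± 0.061 (adjusted p = 0.000117 by edgeR). How reads were divided between the pair was not tested. Of the -ps genes left out by the naming rule, 5 had a mean of at least 10 counts, and only this one is described.

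Further large-subunit members were lower in SAE as well. Rpl4, whose protein lines the exit tunnel for the growing chain, had the highest mean count of all members. It had 1623, 1620.0 and 1666 CPM in SAE and 1841, 1939 and 1884 CPM in CTL, a fold of −0.22 ± 0.034 (adjusted p = 1.18e-05 by edgeR). Rpl8, whose protein lies near the site of peptide bond formation, had 886, 903 and 947.5 CPM in SAE and 1081, 1104 and 1106 CPM in CTL (−0.28 ± 0.038, adjusted p = 1.99e-06 by edgeR). In both genes every SAE library lay below every CTL library. Rpl7 had 714, 740.1 and 769.7 CPM in SAE and 841, 864 and 879 CPM in CTL (−0.23 ± 0.041, adjusted p = 5.6e-05 by edgeR). Rpl36a had 210.1, 209 and 199.6 CPM in SAE and 219, 240.2 and 227.5 CPM in CTL (−0.16 ± 0.055, adjusted p = 0.0178 by edgeR). The call of Rpl36a held in 12 of 16 alternative settings. Among the fits that lost it were those without SAE replicate 2 (adjusted p = 0.0533 by edgeR), SAE replicate 3 (0.0663) or CTL replicate 2 (0.0886).

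Of 19 small-subunit members with 1 transcript, 16 were called lower and 3 were not called, with a median of −0.22 and a range of −0.39 to −0.07. Rps13 had 313, 302 and 316 CPM in SAE and 418, 402 and 393 CPM in CTL. Its fold of −0.39 ± 0.048 was the lowest of the small subunit at this depth (adjusted p = 2.77e-07 by edgeR). Rps6, whose protein is phosphorylated by the S6 kinases downstream of mTOR, had 551.5, 577.5 and 597 CPM in SAE and 689, 684 and 703 CPM in CTL. These did not overlap, and the fold was −0.28 ± 0.042 (adjusted p = 7.82e-06 by edgeR). Rps3, which lies where the mRNA enters the ribosome, had 859.5, 866 and 894 CPM in SAE and 942, 1005 and 1016 CPM in CTL (−0.19 ± 0.04, adjusted p = 0.000346 by edgeR). Rpsa, also known as the laminin receptor, was the exception among the genes of highest count. It had 1211, 1208 and 1280.0 CPM in SAE and 1238, 1320.0 and 1304 CPM in CTL, which overlap (−0.07 ± 0.038, adjusted p = 0.114 by edgeR).

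**Figure D4:**
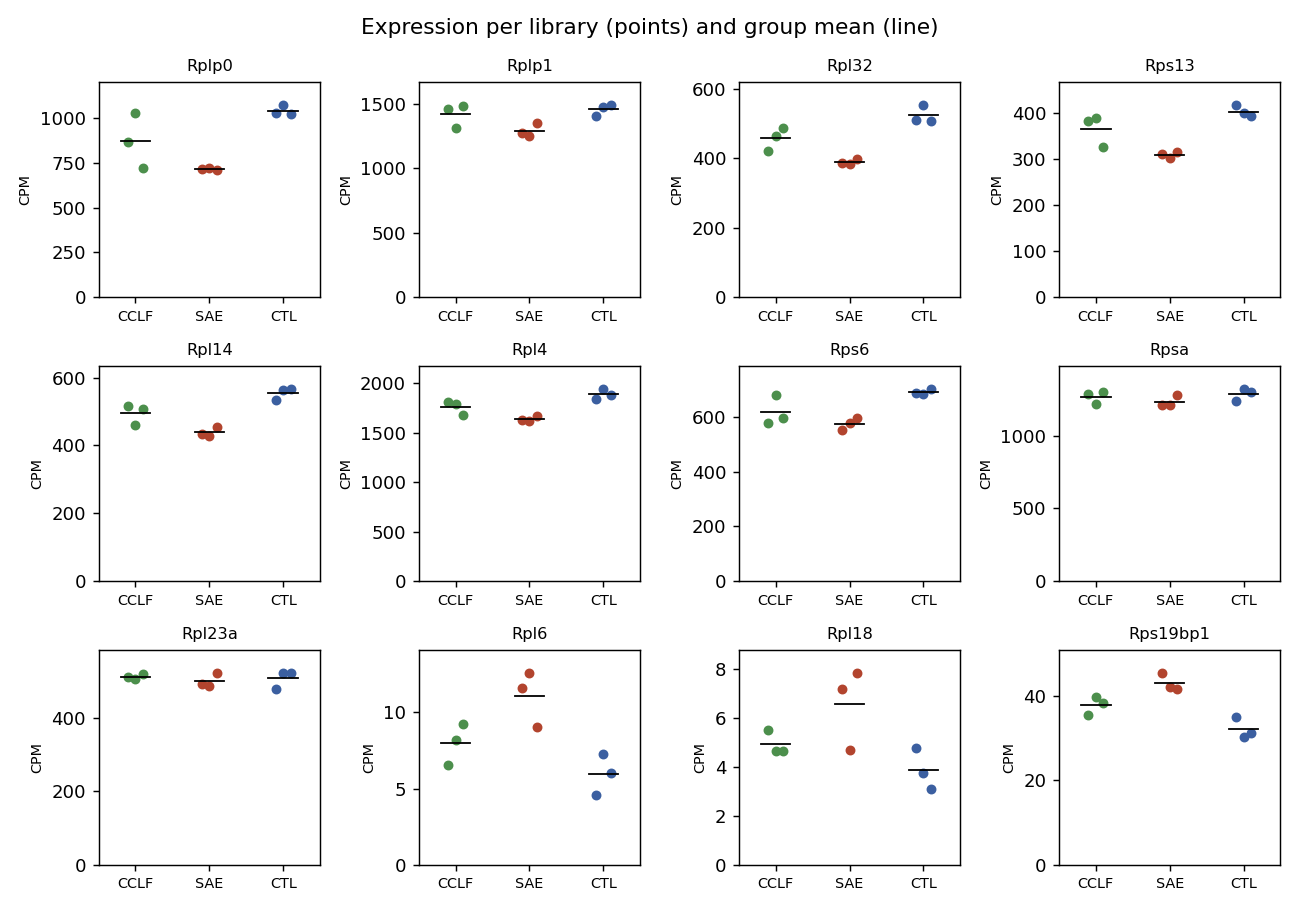
CPM per library (points) and group mean (line) of 12 members in the CCLF, SAE and CTL groups, each axis starting at 0. In Rplp0, Rplp1, Rpl32, Rps13, Rpl14, Rpl4 and Rps6 all SAE points lie below all CTL points; Rpsa, Rpl23a and Rpl18 overlap, and Rpl6 and Rps19bp1 lie higher in SAE.

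Paralogues and retrogenes are near copies of ribosomal protein genes elsewhere in the genome. Of the 6 among the members, all with 1 transcript, 3 were called lower and none higher. Rps4l, the annotated pseudogene related to Rps4x, had 86.1, 101 and 95.7 CPM in SAE and 128, 114 and 113 CPM in CTL (−0.34 ± 0.078, adjusted p = 0.000895 by edgeR). Rpl7l1 had 136, 128 and 135 CPM in SAE and 144, 150.5 and 151 CPM in CTL (−0.17 ± 0.062, adjusted p = 0.0271 by edgeR). This call held in only 8 of 16 alternative settings. Among the fits that lost it were those without SAE replicate 1 or 2 or CTL replicate 2 or 3, with an adjusted p of 0.0546 to 0.15 by edgeR. Its count relative to that of Rpl7 was 0.191, 0.173 and 0.175 in SAE and 0.172, 0.174 and 0.172 in CTL, so the ratio overlapped between groups. Rpl36al had 129.8, 120.1 and 129 CPM in SAE and 136, 134 and 131 CPM in CTL, with a fold of −0.09 ± 0.065 that was not called (adjusted p = 0.248 by edgeR). Its count relative to that of Rpl36a was 0.617, 0.575 and 0.648 in SAE and 0.619, 0.559 and 0.577 in CTL. For both paralogues the ratio to the parent gene overlapped between groups.

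The lowest fold of all members belonged to Rps23rg1, a retroposed copy of Rps23. It rests on few counts: 3.59, 2.77 and 3.5 CPM in SAE and 4.78, 5.81 and 5.39 CPM in CTL. The fold was −0.70 ± 0.291 with an adjusted p of 0.0493 by edgeR, at the edge of the threshold, and the call held in 4 of 16 alternative settings. Without any one of the 6 libraries the call was lost, with an adjusted p of 0.0626 to 0.15. Rps27rt, a retrogene whose coding words are all found in Rps27, had 5.06, 5.55 and 5.14 CPM in SAE and 8.26, 6.23 and 5.8 CPM in CTL. It was not called (−0.37 ± 0.252, adjusted p = 0.235 by edgeR), although the groups did not overlap. Rpl32l had 3.59, 1.71 and 1.85 CPM in SAE and 3.26, 1.45 and 2.69 CPM in CTL, too few counts to place it (−0.06 ± 0.415, adjusted p = 0.92 by edgeR).

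The 8 members with several transcripts went more than one way: 1 was called lower, 2 higher, and 5 were not called. Rpl10a had 7.38, 6.83 and 8.02 CPM in SAE and 9.34, 13.7 and 11.4 CPM in CTL (−0.64 ± 0.211, adjusted p = 0.0145 by edgeR). Its call held in 12 of 15 alternative settings. Among the fits that lost it were those without SAE replicate 2 (adjusted p = 0.0554 by edgeR) or CTL replicate 2 (0.0931). Rpl6 had 11.6, 12.6 and 9.05 CPM in SAE and 4.56, 7.27 and 6.01 CPM in CTL, without overlap (0.88 ± 0.231, adjusted p = 0.0028 by edgeR). Rpl18 had 7.17, 4.69 and 7.82 CPM in SAE and 4.78, 3.74 and 3.11 CPM in CTL, where SAE replicate 2 fell just under the highest CTL library (0.75 ± 0.286, adjusted p = 0.0336 by edgeR). The call of Rpl18 was lost in 6 of its 15 alternative settings, among them without SAE replicate 1 or 3 or CTL replicate 2 or 3 (adjusted p = 0.078 to 0.135). Rpl3, whose protein reaches into the peptidyl transferase centre, had 2.32, 2.13 and 2.67 CPM in SAE and 2.39, 1.87 and 2.69 CPM in CTL. Rpl21 had 2.32, 2.99 and 2.67 CPM in SAE and 1.3, 2.91 and 2.07 CPM in CTL. Both genes overlapped and were not called (adjusted p = 0.961 and 0.524 by edgeR). Each of these 8 genes has a mean of at most 45 counts, so their folds describe the few counts the table gives them.

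Rps19bp1 was higher in SAE, with 45.4, 42 and 41.6 CPM against 35, 30.3 and 31.3 CPM in CTL (0.41 ± 0.114, adjusted p = 0.00464 by edgeR). It is the only member with 1 transcript whose fold was above 0. Among the members that were not called, Rpl23a, whose protein sits at the mouth of the exit tunnel, had 492.6, 487 and 522 CPM in SAE and 479.5, 522 and 522 CPM in CTL (−0.03 ± 0.046, adjusted p = 0.581 by edgeR). Rpl10, Rpl27a and Rpl9, which also have 1 transcript and at least 500 counts, were not called either, with a fold of −0.1 each. A missing call does not show that levels were equal.

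Coding sequences from the GENCODE M21 annotation were found for 47 of the 48 members with at least 500 counts. They are 75 to 1257 bases long, with a median of 453. Levels per 1000 bases of coding sequence compare genes only roughly, since this length leaves out the untranslated ends of every mRNA. On this scale, mean levels in CTL ran from 201 CPM for Rpl7l1 to 12600 CPM for Rpl41, with a median of 1220 CPM. Rpl41 encodes the shortest ribosomal protein, and with 75 coding bases the untranslated ends of its mRNA, which are not in this length, weigh heavily. Rps29 followed with 4590 CPM and Rplp1 with 4260 CPM. The low rank of Rpl7l1 was shared by Rpl36al with 421 CPM, which was below its parent Rpl36a with 720 CPM in CTL. Across the members, the fold, SAE minus CTL, was only weakly related to coding length, GC content, level per coding length, mean count or shared sequence (Pearson r between −0.16 and 0.17 across genes, which are not independent and share all libraries).

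Ribosomal protein mRNAs have many processed copies in the genome, and how reads that fit several of them were divided was not tested. A median of 97.6% of a member's coding 31-base words also occurs in transcripts of other genes, with a range of 3.3% to 100%. Members whose sequence is mostly their own include Rpl8 with 11.1% of words shared, Rps3 with 19% and Rpl4 with 39%. Their folds were −0.28, −0.19 and −0.22, and all 3 were called lower. Of the members with at least 500 counts, only those with a start in the promoter table could be divided by the pyrimidine tract marked above. The 12 with this tract at the annotated start had a median fold of −0.25 (range −0.35 to −0.1). The 22 without it had −0.19 (range −0.55 to −0.07). The tract is shown above for Rpl14, at −0.35, and is missing from the window of Rplp0, at −0.55. The ranges overlap, and the difference was not tested.

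Other genes of protein synthesis were counted in the same way, and their counts read against 47.6% of all tested genes called, 23.9% lower. Of 18 genes listed for a TOP tract outside the family, 15 could be tested, of which 9 were lower and 1 was higher, with a median of −0.16. Eif4b, an initiation factor, was at −0.42 ± 0.038 (adjusted p = 1.73e-09) and Eif3e, a subunit of another, at −0.5 ± 0.051 (adjusted p = 1.33e-08, both by edgeR). Eef1a1, the main elongation factor, had 9150 to 9450 CPM in SAE and 10100 to 10200 CPM in CTL (−0.14 ± 0.027, adjusted p = 9.57e-05 by edgeR). Rack1, which encodes a protein of the small subunit outside the naming rule, had 557 to 588 CPM in SAE and 631 to 653 CPM in CTL (−0.16 ± 0.042, adjusted p = 0.00215 by edgeR). Eef1g ran the other way, with 774 to 820 CPM in SAE and 570 to 586 CPM in CTL (0.45 ± 0.041, adjusted p = 2.09e-09 by edgeR). Naca, a chaperone of new chains, was at −1.82 ± 0.141 (adjusted p = 4.02e-10 by edgeR), but it has 3 transcripts and its counts may be partial. Fau, which encodes a ribosomal protein as part of a fusion, had too few counts to test.

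Of 35 ribosome biogenesis genes 17 could be tested, of which 6 were lower and 2 higher, with a median of −0.15. That is 47.1% called, close to the share over all tested genes. Eif6, which keeps new large subunits from joining too early, had 124 to 134 CPM in SAE and 199 to 242 CPM in CTL (−0.81 ± 0.068, adjusted p = 7.75e-10 by edgeR). The nucleolar gene Ncl had 73.7 to 75.8 CPM in SAE and 119 to 138 CPM in CTL (−0.79 ± 0.076, adjusted p = 4.76e-09 by edgeR). It has 2 transcripts, so its counts may be partial. Nob1, which trims the RNA of the small subunit, was at −0.37 ± 0.069 (adjusted p = 8.16e-05 by edgeR), and Bop1 was higher at 0.25 ± 0.057 (adjusted p = 0.000785 by edgeR). Of 22 genes that control TOP mRNAs or ribosome number, 9 could be tested, with 4 lower and 3 higher. Among them Eif4ebp1, a translation repressor under mTOR, was at −1.89 ± 0.229 (adjusted p = 2.65e-07), and Mycn at 1.22 ± 0.152 (adjusted p = 4e-07, both by edgeR). Larp1, the other regulator named above, has 3 transcripts and low counts, with 9.26 to 12.4 CPM in SAE and 6.52 to 7.48 CPM in CTL (0.63 ± 0.211, adjusted p = 0.0155 by edgeR). Mtor, which also has 2 transcripts, had 104 to 115 CPM in SAE and 107 to 113 CPM in CTL (−0.03 ± 0.071, adjusted p = 0.753 by edgeR). Of 13 chaperones and assembly helpers 6 could be tested, with 2 lower, Riok2 at −0.35 and Pno1 at −0.28. The mitochondrial ribosomal protein genes split, with 14 of 54 (25.9%) lower and 12 higher at a median of −0.06, again close to that share. Of 33 genes whose symbols begin with Eif and a digit, mostly initiation factors, 18 were lower and 1 was higher, with a median of −0.4. They include the repressor Eif4ebp1 as well as Eif6, Eif3e and Eif4b, which were already counted in the lists above.

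Cell type markers also differed between the libraries labelled SAE and CTL, where 23.7% of all tested genes were called higher and 23.9% lower. Neuronal markers summed to 12800 to 13100 CPM in SAE and 11300 to 11600 CPM in CTL, with 5 of 10 tested markers higher and none lower. Camk2a, a defining gene of hippocampal excitatory neurons with 5 transcripts in the table, was listed at 0. Markers of dentate and CA neurons overlapped in sum, at 1120 to 1280 CPM in SAE and 1190 to 1330 CPM in CTL, with 1 of 5 higher and 1 lower. Oligodendrocyte markers summed to 1330 to 1530 CPM in SAE and 893 to 975 CPM in CTL, with 5 of 6 tested higher. Markers of their precursors summed to 631 to 661 CPM in SAE and 256 to 367 CPM in CTL, with all 4 tested markers higher. Microglial markers overlapped in sum, at 1010 to 1090 CPM in SAE and 809 to 1130 CPM in CTL, with 6 of 8 higher and 1 lower, and P2ry12 listed at 0. Astrocyte markers overlapped in sum, at 3730 to 3780 CPM in SAE and 3490 to 3780 CPM in CTL, with 2 of 7 tested higher and 4 lower. Endothelial markers summed to 421 to 444 CPM in SAE and 294 to 335 CPM in CTL (2 of 3 higher, 1 lower), and pericyte markers to 475 to 562 CPM in SAE and 309 to 335 CPM in CTL (1 of 2 higher). Pecam1, Kcnj8 and Pdgfrb of these lists were at 0. Choroid plexus markers summed to 702 to 1420 CPM in SAE and 527 to 829 CPM in CTL (1 of 5 higher), and meningeal markers to 195 to 336 CPM in SAE and 182 to 210 CPM in CTL (3 of 6 higher). Red blood cell markers summed to 456 to 563 CPM in SAE and 581 to 601 CPM in CTL (2 of 4 lower), with Alas2 at 0. Neutrophil and monocyte markers summed to 1.44 to 2.74 CPM in SAE and 46.5 to 64.8 CPM in CTL. Of these 9 markers S100a9, Ly6g, Ccr2, Ly6c2 and Plac8 were at 0 in both groups. The part of these cell types in the ribosomal protein result was not tested.

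In the CCLF libraries, labelled as CLP with the flavonoids, few ribosomal protein genes were called against SAE. Of 59 members that could be tested against SAE, 6 were called higher and none lower, and 53 were not called. Over all 7986 tested genes, 8.34% were called, 5.43% higher and 2.91% lower. At matched depth, 12.5% of the 48 members with 1 transcript and at least 500 counts were called, 6 higher and 0 lower. Of all 1580 such genes 12.5% were called as well, 128 higher and 69 lower. The median log2 fold, CCLF minus SAE, was 0.11 over the members and −0.02 over all tested genes. Among the 50 tested members with 1 transcript other than Rps19bp1, the fold was above 0 in every one, with a range of 0.02 to 0.48. At matched depth it was above 0 in all 48 members and in 878 of the 1580 genes. All CCLF libraries lay above all SAE libraries in 28 of 60 members and below them in 2. Over all tested genes 16.8% lay above and 17% below. This comparison uses the same SAE libraries as the one with CTL, so the folds of the 2 comparisons are not independent of each other. Its meaning also rests on the labels: with SAE and CTL exchanged, which was not tested, it would be one against the sham operation.

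Of the 6 called members 3 belong to the large subunit, among them Rpl32 and Rpl24, and 3 to the small one, among them Rps14 and Rps20. Rpl32 had 421, 465 and 486 CPM in CCLF, above the 383 to 398 CPM of SAE (0.24 ± 0.055, adjusted p = 0.0367 by edgeR). Rpl24 had 441, 444 and 442 CPM in CCLF against 368 to 396 CPM in SAE (0.23 ± 0.039, adjusted p = 0.013 by edgeR). Rps14 had a fold of 0.21 ± 0.05 (adjusted p = 0.0431 by edgeR) and Rps20 of 0.2 ± 0.045 (adjusted p = 0.0351 by edgeR). None of the 6 calls was left without SAE replicate 1 or without SAE replicate 2, where 0 members were called in each case. Over all genes the calls dropped to between 154 and 180 when any one SAE library was left out, against 666 with all of them. Rplp0, described above for its fall in SAE, was not called in CCLF against SAE (0.29 ± 0.116, adjusted p = 0.172 by edgeR), with CCLF values that ran from the SAE level up to that of CTL.

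Relative to CTL, all CCLF libraries lay below all CTL libraries in 17 members, above them in 1, and overlapped with them in 42. Over 8213 tested genes 15.5% lay below and 17.2% above. The CCLF mean lay between the SAE and CTL means in 55 of 60 members, and in 49 of the 51 with 1 transcript. The same held for 83.5% of all tested genes. All 3 CCLF values lay within the range of the other 6 libraries in 58 of 60 members, beside 96.3% of all tested genes. The intermediate position of the members is thus shared with most of the table. The cause of the low spread of the CCLF columns over all tested genes, which the members do not show, was not tested.

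**Figure D5:**
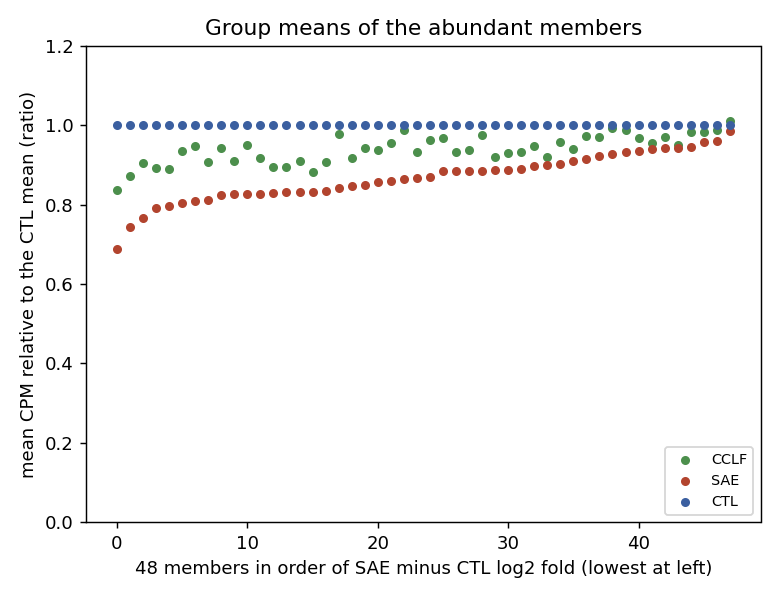
Mean CPM of each group relative to the CTL mean (ratio, axis from 0) for the 48 members with 1 transcript and at least 500 counts, ordered by the log2 fold of SAE minus CTL. SAE means lie below 1 in all 48, and most CCLF means lie between those of SAE and CTL.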

How the data were processed

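The members and the gene lists were chosen with earlier results of these data known. Only the deposited table of whole-number counts per RefSeq transcript was used, and each of its 9 columns was matched to a sample (0 columns unmatched). Per the submitters' processing notes the authors used fastp and Salmon. Their versions and settings, the index and the build were not given in the sources used here. All 120312 rows were matched to genes with the RefSeq table of GRCm38.p6, used for names only, and summed per gene.

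Each pair of groups was fitted alone in edgeR 4.0.16 (R 4.3.3): filterByExpr with a minimum of 10 counts, scaling by the trimmed mean of M values, a robust quasi-likelihood F test, and Benjamini-Hochberg adjustment over all tested genes. The SE is approximate: the size of the fold over the root of its F statistic. CPM values use factors from all 9 libraries and are given per replicate or as mean ± SD. Scaling factors were 0.983 to 1.021, and counting precision follows from totals of 4626519 to 4895474. Calling was tested on simulated counts: of genes changed 2-fold, 76% of 100 were recovered in SAE against CTL with 6 false calls among 8213 genes, and 85% of 100 in CCLF against SAE with 8 among 7986. Of genes changed 1.25-fold, 14.7% of 95 were recovered in SAE against CTL and 21.4% of 98 in CCLF against SAE. The changed genes were drawn from tested genes of every depth. Small folds can therefore go uncalled. Recovery at the depth of most members was not simulated, and 40 of the 48 members with at least 500 counts were called lower.

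Named members are the 8 lowest and 5 highest called folds (3 were called higher), the stalk genes and Rpsa, paralogues with their parents, Rps6, Rps19bp1, the 5 highest mean counts, means of 10 to 20 or just under 10, and up to 6 folds nearest 0. List genes are up to 4 with the smallest p. Other members and list genes were named after their values were seen. Alternatives were DESeq2 1.42.0 size factors and Wald test, limma-voom (limma 3.58.1), other scalings and filters, all 9 libraries together, a replicate block, genes with 1 transcript, and each library left out in turn. Coding sequences came from GENCODE M21, and start windows from RefSeq. The replicates' numbers do not pair the samples. Values of some genes are not reported here.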

Additional observations from a re-analysis of the deposited data

How the results depend on the processing

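In SAE against CTL, all 42 members called lower had a fold below 0 in every alternative fit that tested them (16, or 15 for Rpl10a), and 32 of them were called in every one. The other 10 lost the call in at least 1 fit: Rpl10a, Rpl13, Rpl13a, Rpl26, Rpl36a, Rpl39, Rpl7l1, Rps23rg1, Rps26 and Rps29. Leaving out each library in turn gave 34 to 45 members lower, 2 to 3 higher, a median fold of −0.22 to −0.17 and 3543 to 3932 called genes. With library totals as the only scaling 34 members were lower and the median was −0.15, where the median of all genes was 0.044. A fit of only the genes with 1 transcript called 36 of 52 members lower and 1 higher, where the main fit called 41 of them lower. In that fit 2565 genes were called because fewer genes were tested. A threshold of more than 1.25-fold, added after seeing the data, left 8 members lower. In CCLF against SAE, 18 members were higher with a median of 0.15 without the filter, and 11 were higher with all 9 libraries in the fit; the cause was not tested. Leaving out each library gave 0 to 9 higher, with 0 without SAE replicate 1 or SAE replicate 2. Of 666 called genes 65.2% were higher, against 76.4% without the filter. Rpsa was called without SAE replicate 3 (adjusted p = 0.0324 by edgeR). The replicate numbers only name the samples: same-numbered libraries had correlated deviations of r = −0.018 to 0.029, and 2 of 3 SAE libraries correlated best with their own number. A fit with the replicate block gave 42 members lower, 3 higher, a median of −0.19 and 3892 called genes in SAE against CTL, and 6 higher, 0 lower and a median of 0.11 in CCLF against SAE, and it ended the call of Rps23rg1 (adjusted p = 0.063 by edgeR). Depth limits the 8 members with several transcripts and the low-count retrogenes.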
